A study of Mus musculus with 16 samples.

Results

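Expression of 40 genes of MHC antigen presentation and the interferon gamma response was followed in 16 subcutaneous Hepa1-6 tumours, 1 Affymetrix mouse array per tumour. The genes were taken by symbol from a list of these functions, and the probe set of highest mean over the 16 arrays stood for each gene. Of the 40 genes, 36 had a probe set of their own among the 17097 genes tested. B2m, Tap1, Tap2 and Gbp6 had none and were not analysed here. Hepa1-6 is a mouse liver cancer cell line, and cells of it, suspended in 50% Matrigel, had been placed under the flank skin of male C57BL/6 mice aged 5 weeks. Mice were assigned at random once a tumour measured 200 to 300 cubic mm, and tumours were taken on day 14. The 4 Combination mice received cabozantinib together with the anti-PD1 antibody. The 5 Cabozantinib mice received 30 mg/kg by mouth each day, and cabozantinib is an inhibitor of several receptor tyrosine kinases. The 3 AntiPD1 mice received the hamster antibody J43 against the T cell checkpoint receptor PD-1, in 5 injections of 10 mg/kg spaced 3 days apart. The 4 Placebo mice received hamster IgG on that injection schedule. The labels do not say whether Cabozantinib mice were also injected with IgG.

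MHC class I molecules present peptides from inside the cell to CD8 T cells. The peptides are cut by the proteasome, whose inducible subunits form the immunoproteasome, and are carried by the TAP transporter into the endoplasmic reticulum, where chaperones load them. Class II molecules present peptides from engulfed material to CD4 T cells, and are made mainly by dendritic cells, macrophages and B cells, and by other cells under interferon gamma. Interferon gamma, released by T and NK cells, acts through JAK kinases. Its targets include IRF1, the transactivator CIITA for class II, NLRC5 for class I, and a family of GTPases that act against intracellular microbes.

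The labelled liver origin was visible in the RNA: Alb and Afp, products of liver and fetal liver cells, stood at the 99.9th and 99.5th percentile of genes by mean signal. The Combination minus Placebo difference was -0.22 ± 0.06 for Alb (adjusted p = 0.036 by limma) and -0.16 ± 0.06 for Afp (adjusted p = 0.0987). Markers of other cells were present too. The summed signal of 7 macrophage markers, on the log2 scale, was 12.73 to 13.44 in Combination tumours, 10.45 to 12.75 in Cabozantinib tumours, 12.69 to 13.11 in AntiPD1 tumours and 10.65 to 12.03 in Placebo tumours. Against Placebo, 4 of these 7 markers rose in Combination tumours, but 0 did so without Combination replicate 2, Placebo replicate 2 or Placebo replicate 4. None of the 7 had a mean at or below 4.92, the lowest array median. Of 6 B cell markers, 5 (Cd79a, Cd79b, Ms4a1, Pax5 and Fcrla) had such a low mean, and so were not shown to be above background. Skeletal muscle markers were highest in AntiPD1 replicate 2, Cabozantinib replicate 4 and Combination replicate 4, whose mean deviation from the average tumour was 4.58, 4.38 and 5.24 on the log2 scale. Cabozantinib replicate 2 was lowest of the 16 in macrophage markers, at -2.01, and highest in adipocyte markers, at 3.32. In bulk tumours fewer cells of a type and less RNA per cell cannot be told apart, for any result below.

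The antigen presentation genes were among the most strongly detected on the arrays. Of the 36, 25 lay in the top 10% of genes by mean log2 signal, and the mean signals ran from 4.65 for H2-Ob to 12.51 for H2-D1. Signal depends on the probe, so an order between genes is not an order of abundance. H2-Ob, a chain of the class II modulator H2-O, was the only one of the 36 with a mean below 4.92. Pdia3, a protein disulfide isomerase of the class I loading complex, was read by 1 probe set with a mean of 5.81. The spread between tumours of 1 group was larger than is usual on these arrays: the median within-group SD was 0.23 over the 36 genes and 0.16 over all 17097 genes. Over genes above the lowest array median these values were 0.23 for 35 of the members and 0.18 for 10548 genes in all.

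The widest ranges belonged to class II and its transactivator. Ciita spanned 3.01 on the log2 scale over the 16 tumours, H2-Ab1 spanned 3.00 and H2-DMa spanned 2.89, against 0.37 for the classical class I heavy chain H2-D1 and 0.23 for the chaperone Canx. One tumour supplied most of the low ends. Cabozantinib replicate 2 was the lowest tumour for 28 of the 36 genes, while it was the lowest for 10.8% of all genes tested. The high ends were more spread out. Combination replicate 2 was highest for 10 of the 36 and for 10.5% of all genes. Cabozantinib replicate 3 was highest for 7 and for 3.95% of all genes, and the remaining high ends fell in other tumours. Several differences that involve the Cabozantinib group are therefore also given without its replicate 2.

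**Figure D1:**
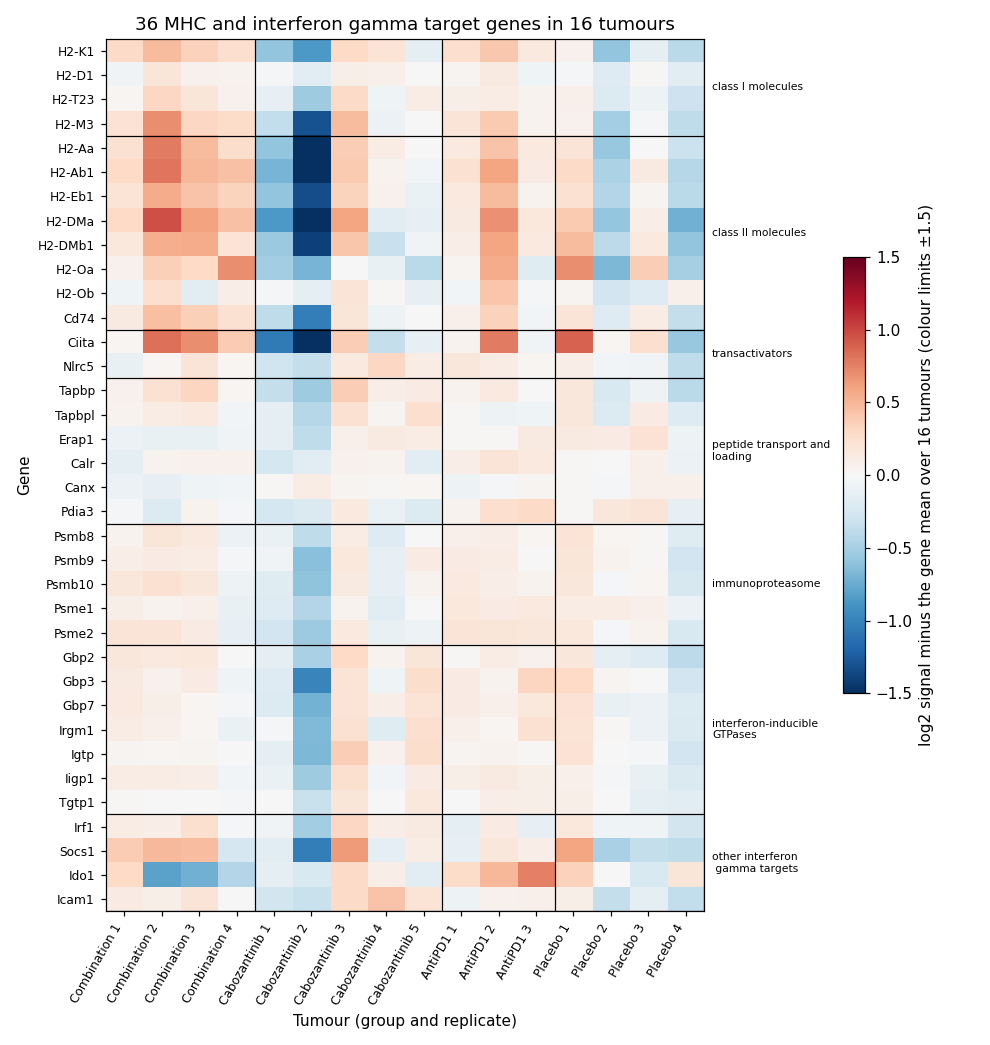
Each row is 1 of 36 genes, grouped by role, and each column is 1 tumour. Colour shows the log2 signal minus that gene's mean over 16 tumours, with colour limits at 1.5 either side of 0. Cabozantinib replicate 2 is the lowest tumour for 28 of the 36 genes, and the Combination columns are above the gene mean in most class II rows.

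None of the 36 genes passed an adjusted p of 0.05 in any comparison by limma, which was fitted over all 17097 genes with Benjamini-Hochberg adjustment. The size of that background differed widely. At an adjusted p under 0.05, 10.4% of all genes were called between Combination and Placebo, 5.43% between Cabozantinib and AntiPD1, 0.257% between Cabozantinib and Placebo, 0.234% between Combination and AntiPD1, 0.0292% between AntiPD1 and Placebo, 0.00585% between Combination and Cabozantinib and 0.0% for the interaction of the drugs. The lowest adjusted p of the 36 genes was 0.0836 in the first of these comparisons and 0.0841 in the second. The first background itself rested on single tumours, falling to 42 genes without Combination replicate 2.

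Counts at an unadjusted p under 0.05 are given beside the same count over all genes. They were 12 of 36 between Combination and Cabozantinib (22.5% of all genes), 4 between Combination and Placebo (29.2%), 2 between Combination and AntiPD1 (7.21%), 6 between Cabozantinib and AntiPD1 (22.2%), 1 between Cabozantinib and Placebo (13.0%), 1 between AntiPD1 and Placebo (19.2%) and 1 for the interaction (2.57%). In percent of the 36 genes, the same counts were 33.3, 11.1, 5.6, 16.7, 2.8, 2.8 and 2.8. Combination against Cabozantinib was the pairwise comparison in which the share of the 36 genes exceeded that of all genes, and 11 of its 12 genes were higher with the combination. The comparisons share tumours, so their values are set side by side and are not independent of each other. How many of all genes lacked overlap between 2 groups was not counted for any comparison. Each lack of overlap named below therefore has no background beside it.

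All 4 class I heavy chains had higher means in each group that received anti-PD1 than in either group that did not, by differences that did not pass the test. Without Cabozantinib replicate 2, 1 of the 4 was higher in Cabozantinib than in AntiPD1 tumours. H2-K1, a classical class I heavy chain, measured 12.52, 12.71, 12.58 and 12.48 in Combination tumours. Its log2 signal was 11.64, 11.37, 12.53, 12.44 and 12.10 in Cabozantinib tumours. In AntiPD1 tumours H2-K1 measured 12.49, 12.64 and 12.38, and in Placebo tumours 12.29, 11.64, 12.10 and 11.83. All 4 Combination tumours and all 3 AntiPD1 tumours exceeded every Placebo tumour. The Cabozantinib values, from 11.37 to 12.53, covered the Placebo range. The highest of them lay inside the Combination range, 12.48 to 12.71, and inside the AntiPD1 range, 12.38 to 12.64. H2-K1 was 1.52-fold higher in Combination than in Placebo tumours (95% interval 1.10 to 2.10), a log2 difference of 0.61 ± 0.22 (SE) with an adjusted p of 0.0836 by limma. The AntiPD1 minus Placebo difference was 0.54 ± 0.24, with an adjusted p of 0.237. The macrophage markers that differed between Combination and Placebo tumours, given above, moved with H2-K1, and Alb was lower in Combination tumours. The part of these markers in the H2-K1 difference was not tested.

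The call for H2-K1 depended on the fit. It had an adjusted p of 0.0296 by limma when Combination and Placebo alone were fitted, 0.0294 with array weights and 0.0417 without Cabozantinib replicate 2. H2-M3, a nonclassical heavy chain that presents N-formylated peptides, measured 9.31, 9.79, 9.41 and 9.37 in Combination tumours. In Placebo tumours it measured 9.15, 8.59, 9.06 and 8.72, with no overlap between the groups, which was not counted over all genes. Its log2 difference was 0.59 ± 0.28, and its adjusted p by limma was 0.170 in the fit of all groups, 0.0403 with Combination and Placebo alone and 0.0433 without Cabozantinib replicate 2. H2-D1 differed by 0.16 ± 0.08 and H2-T23, which encodes the nonclassical molecule Qa-1, by 0.28 ± 0.14 in the same comparison, with adjusted p values of 0.195 and 0.202. Over the 4 class I heavy chains the median log2 difference from Placebo was 0.43 for Combination, 0.06 for Cabozantinib and 0.32 for AntiPD1, where the median over all genes was -0.02, 0.00 and -0.03. The Cabozantinib median was 0.20 without its replicate 2 (4 of 4 positive) and -0.05 without its replicate 3 (1 of 4 positive), so its direction rested on single tumours.

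H2-K1 and H2-D1 are near copies, and 5 probe sets were paired with both at once, together with another locus. These were not used. Since the sequences are close, the signal of the remaining probe sets may come in part from the other gene, and their values are uncertain for that reason. The 3 other probe sets of H2-K1 correlated with the one used at 0.99, 0.99 and 0.97 over the 16 tumours.

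The class II genes had their largest differences between the combination and cabozantinib alone. H2-Ab1, the beta chain of I-A, measured 12.06, 12.56, 12.26 and 12.20 in Combination tumours. It measured 11.07, 9.56, 12.15, 11.81 and 11.72 in Cabozantinib tumours. In AntiPD1 tumours H2-Ab1 was at 11.98, 12.35 and 11.88, and in Placebo tumours at 12.05, 11.28, 11.89 and 11.33. Of the Combination tumours, 3 of 4 exceeded every Cabozantinib tumour and 4 of 4 exceeded every Placebo tumour, the closest by a narrow margin. H2-Ab1 was 2.01-fold higher in Combination than in Cabozantinib tumours (95% interval 1.12 to 3.60), a log2 difference of 1.004 ± 0.39 with an adjusted p of 0.152 by limma. That difference was 0.58 ± 0.23 without Cabozantinib replicate 2, with an adjusted p of 0.221.

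Averaged over the 8 class II genes, each taken as its deviation from its own mean, the tumours stood at 0.17, 0.59, 0.38 and 0.34 in the Combination group and at -0.53, -1.30, 0.31, -0.06 and -0.10 in the Cabozantinib group. The same deviations were 0.10, 0.51 and 0.05 in the AntiPD1 group and 0.31, -0.45, 0.09 and -0.41 in the Placebo group. All 4 Combination and all 3 AntiPD1 tumours were above 0, while 4 of 5 Cabozantinib and 2 of 4 Placebo tumours were below it.

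H2-DMa, the alpha chain of the chaperone that exchanges class II peptides, measured 10.39, 11.06, 10.70 and 10.53 in Combination tumours. It measured 9.23, 8.17, 10.68, 9.92 and 9.97 in Cabozantinib tumours. Its difference was the largest of the class II genes by the probe sets used, at 1.07 ± 0.39 (2.11-fold, 95% interval 1.18 to 3.76, adjusted p = 0.131). The groups overlapped through Cabozantinib replicate 3 alone, at 10.68. For the I-A alpha chain H2-Aa the difference was 0.79 ± 0.32, for the I-E beta chain H2-Eb1 0.70 ± 0.27, for the DM beta chain H2-DMb1 0.75 ± 0.30 and for the invariant chain Cd74 0.56 ± 0.20. Without Cabozantinib replicate 2 the differences were smaller, at 0.72 ± 0.30 for H2-DMa, 0.46 ± 0.21 for H2-Aa, 0.45 ± 0.19 for H2-Eb1, 0.50 ± 0.24 for H2-DMb1 and 0.36 ± 0.14 for Cd74. H2-Oa, the other chain of H2-O, measured 6.04, 6.32, 6.27 and 6.67 in Combination tumours and 5.44, 5.27, 5.97, 5.86 and 5.57 in Cabozantinib tumours. It was the only class II gene whose Combination and Cabozantinib values did not overlap, and its difference was 0.70 ± 0.26 with an adjusted p of 0.136. How many of all genes lacked overlap in this comparison was not counted, while 22.5% of them had an unadjusted p under 0.05 by limma. H2-Ob differed by 0.05 ± 0.12, near background in every group.

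Of the 8 class II genes, 7 had an unadjusted p under 0.05 for Combination against Cabozantinib, where 22.5% of all genes did, and their adjusted p values by limma ran from 0.128 to 0.853 over the 8. All 8 differences were positive, and their median was 0.73, against a median of -0.03 over all genes. Without Cabozantinib replicate 2 the class II median was 0.48 and all 8 stayed positive, and without Cabozantinib replicate 3 it was 0.91. Leaving out the 3 tumours highest in muscle genes gave 0.82. The macrophage markers moved alongside. Between Combination and Cabozantinib tumours 0 of the 7 passed the test by limma, 6 had an unadjusted p under 0.05, and the 7 differences were all positive with a median of 1.39, or 1.02 without Cabozantinib replicate 2. Of 6 B cell markers, most of them near background, 5 were higher and 3 had such a p, with a median of 0.65. Of 6 dendritic cell markers, 5 were higher and 2 had such a p, with a median of 0.21. All 11 T and NK cell markers were higher, with a median of 0.42 and 0 at such a p. The 9 tumour cell markers were all lower, 6 at such a p, with a median of -0.57. None of these passed the test by limma. The part of these marker differences in the class II difference was not tested.

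Against Placebo, the class II medians were 0.49 for Combination, -0.25 for Cabozantinib and 0.37 for AntiPD1, with 8, 1 and 8 of 8 genes positive. The Cabozantinib median turned to 0.05, with 5 of 8 positive, when replicate 2 was left out. No class II gene had an unadjusted p under 0.05 in any of these 3 comparisons. Combination and AntiPD1 tumours stood close, with a class II median difference of 0.18. For H2-Ab1 that difference was 0.20 ± 0.45, an interval wide enough to hold a change of either sign. The interaction, which asks whether adding anti-PD1 to cabozantinib differed from adding it to placebo, had a class II median of 0.38 with an adjusted p of 1.0 for each gene, and a median of 0.14 without Cabozantinib replicate 2.

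**Figure D2:**
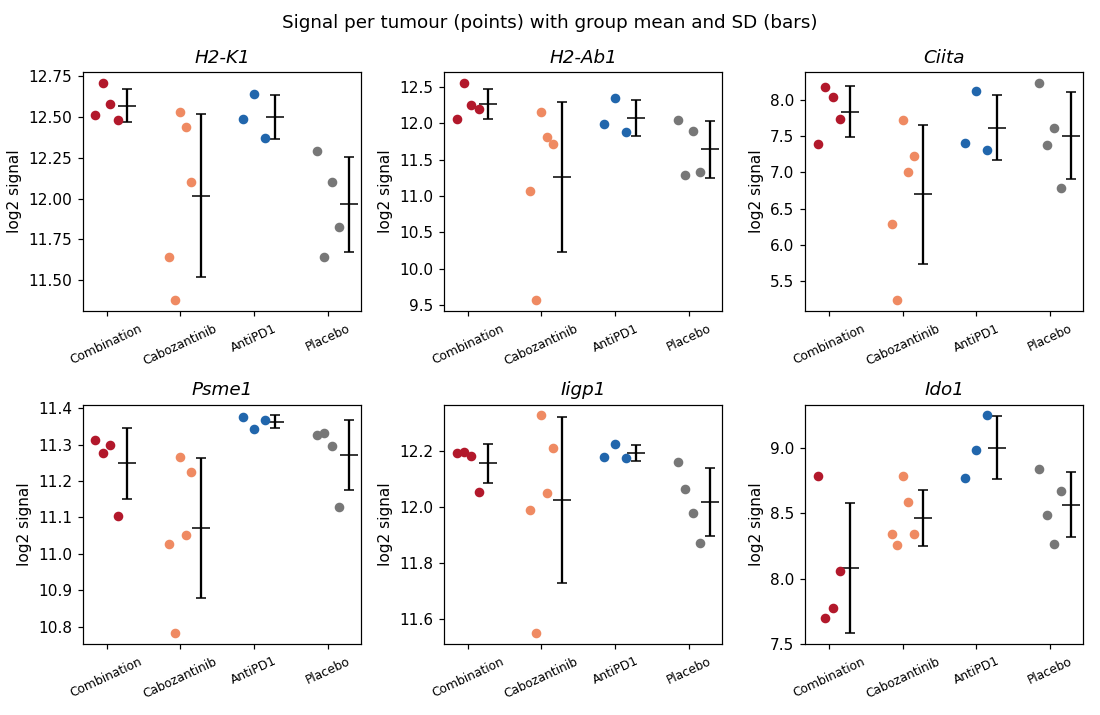
Each point is the log2 signal of 1 tumour for a class I gene (H2-K1), a class II gene (H2-Ab1), the class II transactivator Ciita, the proteasome activator Psme1, the GTPase Iigp1 and the enzyme Ido1. The bar beside each group gives its mean and SD for 4 Combination, 5 Cabozantinib, 3 AntiPD1 and 4 Placebo tumours. The Cabozantinib tumours spread widest for H2-K1, H2-Ab1, Ciita, Psme1 and Iigp1, and the Combination tumours spread widest for Ido1.

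Of the transactivators, Ciita followed class II and Nlrc5 did not separate the groups. Ciita, which drives class II transcription without binding DNA itself, measured 7.39, 8.19, 8.05 and 7.74 in Combination tumours. In Cabozantinib tumours it measured 6.29, 5.23, 7.72, 7.002 and 7.23. AntiPD1 tumours had 7.41, 8.13 and 7.31, and Placebo tumours had 8.24, 7.39, 7.61 and 6.79. The Combination minus Cabozantinib difference was 1.15 ± 0.42 (2.21-fold, 95% interval 1.19 to 4.12), with an adjusted p of 0.132 by limma. By the probe sets used, that difference was the largest of any of the 36 genes in any comparison. Without Cabozantinib replicate 2 it was 0.78 ± 0.33 with an adjusted p of 0.253, and without Cabozantinib replicate 3 it was 1.40 ± 0.40 with an adjusted p of 0.0406. Cabozantinib minus Placebo was -0.81 ± 0.42 with an adjusted p of 0.446, and -0.445 ± 0.33 without Cabozantinib replicate 2. These sizes depended on the probe set. Another Ciita probe set of nearly equal mean signal, 7.34 beside 7.36, gave 0.65 for Combination minus Cabozantinib and -0.38 for Cabozantinib minus Placebo. A dimmer one, with a mean of 5.61, gave 0.62 and -0.17. The other probe sets of H2-Ab1 gave 1.19 and 1.21 for Combination minus Cabozantinib, above the Ciita value. Nlrc5, the transactivator of class I genes, differed by 0.05 ± 0.13 between Combination and Cabozantinib tumours, or by -0.03 ± 0.13 without Cabozantinib replicate 2, and by 0.13 ± 0.14 between Combination and Placebo tumours.

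The 6 peptide loading genes had no common direction between Combination and Placebo tumours, with a median of -0.05 and 3 of 6 positive. Tapbp, which bridges class I molecules to the transporter, differed by 0.30 ± 0.17 between Combination and Placebo tumours. The related editor Tapbpl differed by 0.09 ± 0.13 and the trimming peptidase Erap1 by -0.19 ± 0.10. Canx, the membrane chaperone of new glycoproteins, ran the other way from most of the set. It measured 11.76, 11.73, 11.79 and 11.80 in Combination tumours, against 11.87, 11.82, 11.93 and 11.93 in Placebo tumours. The groups did not overlap, which was not counted over all genes, where 29.2% had an unadjusted p under 0.05 by limma. The Canx difference was small, at -0.12 ± 0.05 with an adjusted p of 0.139. Against Cabozantinib tumours, at 11.87, 11.97, 11.90, 11.87 and 11.88, the difference was -0.13 ± 0.05 with an adjusted p of 0.142.

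Calr, the soluble chaperone partner of Canx, was lower in Cabozantinib than in AntiPD1 tumours. It measured 11.04, 11.13, 11.37, 11.36 and 11.14 in Cabozantinib tumours and 11.41, 11.50 and 11.45 in AntiPD1 tumours, with no overlap, which was not counted over all genes. The difference was -0.24 ± 0.08, with an adjusted p of 0.0974 by limma. Pdia3 differed in that comparison by -0.33 ± 0.10 with an adjusted p of 0.0841, at a signal not far above background.

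The immunoproteasome genes varied together and differed little between groups. Psme1 and Psme2 encode the activator ring that caps the proteasome. Psme1 measured 11.03, 10.78, 11.27, 11.05 and 11.22 in Cabozantinib tumours and 11.38, 11.34 and 11.37 in AntiPD1 tumours, and every Cabozantinib tumour lay below every AntiPD1 tumour. The difference was -0.29 ± 0.10 with an adjusted p of 0.0914 by limma. Psme2 measured 10.98, 10.71, 11.41, 11.15 and 11.19 in Cabozantinib tumours and 11.46, 11.44 and 11.43 in AntiPD1 tumours. Its difference was -0.36 ± 0.13, with an adjusted p of 0.123. Calr, Pdia3, Psme1 and Psme2 had adjusted p values under 0.05 by limma in this comparison with array weights, from 0.0221 to 0.0417, and without Cabozantinib replicate 3, from 0.0185 to 0.0397. No other alternative called any of them here. Without Cabozantinib replicate 2, the lowest tumour for Psme1 and Psme2, the median of the 5 immunoproteasome genes in this comparison went from -0.25 to -0.13. All 7 endothelial markers fell in the same comparison (4 of 7 without AntiPD1 replicate 2), with summed log2 signals of 8.05 to 8.78 in Cabozantinib tumours and 9.90 to 10.65 in AntiPD1 tumours, though 2 of them, Tek and Tie1, were at or below the lowest array median. The 7 macrophage markers were all lower in Cabozantinib than in AntiPD1 tumours too, with a median of -1.09 (-0.73 without Cabozantinib replicate 2), and 5 had an unadjusted p under 0.05 while 1 passed the test. Of 6 dendritic cell markers, 4 were lower at an unadjusted p under 0.05 and 1 passed the test, with a median of -0.71. The part of these marker differences in the values of the 4 genes was not tested. The catalytic subunits Psmb8, Psmb9 and Psmb10 differed by -0.18 ± 0.11, -0.19 ± 0.15 and -0.25 ± 0.14 between Cabozantinib and AntiPD1 tumours, and by -0.12 ± 0.10, -0.06 ± 0.10 and -0.13 ± 0.11 without Cabozantinib replicate 2. Between Combination and Placebo tumours the median of the 5 genes was 0.08.

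The interferon-inducible GTPases had strong signals and small differences between the groups. Iigp1, an immunity-related GTPase, measured 12.19, 12.20, 12.18 and 12.05 in Combination tumours. It measured 11.99, 11.55, 12.33, 12.05 and 12.21 in Cabozantinib tumours. AntiPD1 tumours had 12.18, 12.23 and 12.17, and Placebo tumours had 12.16, 12.06, 11.98 and 11.87. The lowest and the highest of the 16 tumours were both in the Cabozantinib group. The Combination minus Placebo difference was 0.14 ± 0.13 (adjusted p = 0.509) and the Cabozantinib minus Placebo difference was 0.01 ± 0.12 (adjusted p = 0.989). Over the 7 GTPases, Gbp2, Gbp3, Gbp7, Irgm1, Igtp, Iigp1 and Tgtp1, the median difference from Placebo was 0.06 for Combination, 0.00 for Cabozantinib and 0.16 for AntiPD1. The Cabozantinib median depended on single tumours, at 0.13 with 7 of 7 positive without its replicate 2 and at -0.10 with 2 of 7 positive without its replicate 3, and Iigp1 then differed by 0.13 ± 0.08 and -0.07 ± 0.11. Averaged over the 7, the deviations of single tumours ran from -0.04 to 0.10 in the Combination group, from -0.63 to 0.25 in the Cabozantinib group, from 0.07 to 0.14 in the AntiPD1 group and from -0.25 to 0.18 in the Placebo group, and so overlapped. Group membership accounted for 1.4% (Igtp) to 20.1% (Gbp2) of the variance over tumours among the 7 GTPases, for 28.1% (H2-T23) to 47.5% (H2-K1) among the 4 class I genes and for 16.3% (H2-Ob) to 38.5% (H2-DMa) among the 8 class II genes. Other roles reached as high. The share was 5.4% (Tapbpl) to 63.7% (Canx) among the peptide loading genes and 15.4% (Psmb9) to 47.8% (Psme1) in the immunoproteasome. Among the other interferon gamma targets it was 10.5% (Irf1) to 54.7% (Ido1). No such share was taken over all genes, so these values have no background beside them. That none of the 7 GTPases had an unadjusted p under 0.05 in any of the 7 comparisons does not show equal levels, since the 95% interval of Gbp3 for Combination minus Placebo ran from -0.40 to 0.51.

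Of the remaining targets, Ido1 had the strongest statistic of the set. Ido1 degrades tryptophan and restrains T cells. It measured 8.79, 7.70, 7.78 and 8.06 in Combination tumours and 8.35, 8.26, 8.79, 8.59 and 8.34 in Cabozantinib tumours. It measured 8.77, 8.99 and 9.25 in AntiPD1 tumours and 8.84, 8.49, 8.26 and 8.67 in Placebo tumours. Of the Combination tumours, 3 of 4 lay below every tumour of the other groups, and replicate 1 lay among them. The Combination minus AntiPD1 difference was -0.92 ± 0.23 (0.527-fold, 95% interval 0.376 to 0.739), with an adjusted p of 0.173 by limma. Without Combination replicate 1 it was -1.16 ± 0.17 with an adjusted p of 0.0204. The Combination minus Placebo difference was -0.49 ± 0.21 (adjusted p = 0.140), and without Combination replicate 1 it was -0.72 ± 0.16 (adjusted p = 0.0343). Ido1 was the only gene of the set with an unadjusted p under 0.05 for the interaction, at -0.82 ± 0.30, and its adjusted p there was 1.0. Markers of other cells moved in these comparisons. Against AntiPD1, 5 of 7 endothelial markers fell in Combination tumours (1 of 7 without Combination replicate 2 or AntiPD1 replicate 2), with a median of -1.43, and 4 of 6 dendritic cell markers were lower at an unadjusted p under 0.05, with a median of -0.49, while 0 of the 6 passed the test. Against Placebo, 5 of 7 endothelial markers fell and 1 rose, with a median of -0.85, and 0 fell without Combination replicate 2, Placebo replicate 2, Placebo replicate 3 or Placebo replicate 4. The part of these markers in the Ido1 values was not tested.

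Irf1, an early transcription factor of the response, differed by 0.17 ± 0.15 between Combination and Placebo tumours. Socs1, the feedback inhibitor of JAK kinases, measured 7.94, 8.04, 8.01 and 7.29 in Combination tumours and 8.15, 7.06, 7.19 and 7.17 in Placebo tumours. Its difference was 0.43 ± 0.31, and all 4 Combination values lay within the Placebo range. The adhesion molecule Icam1 differed by 0.30 ± 0.16. The adjusted p values of these 3 genes ran from 0.223 to 0.492.

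**Figure D3:**
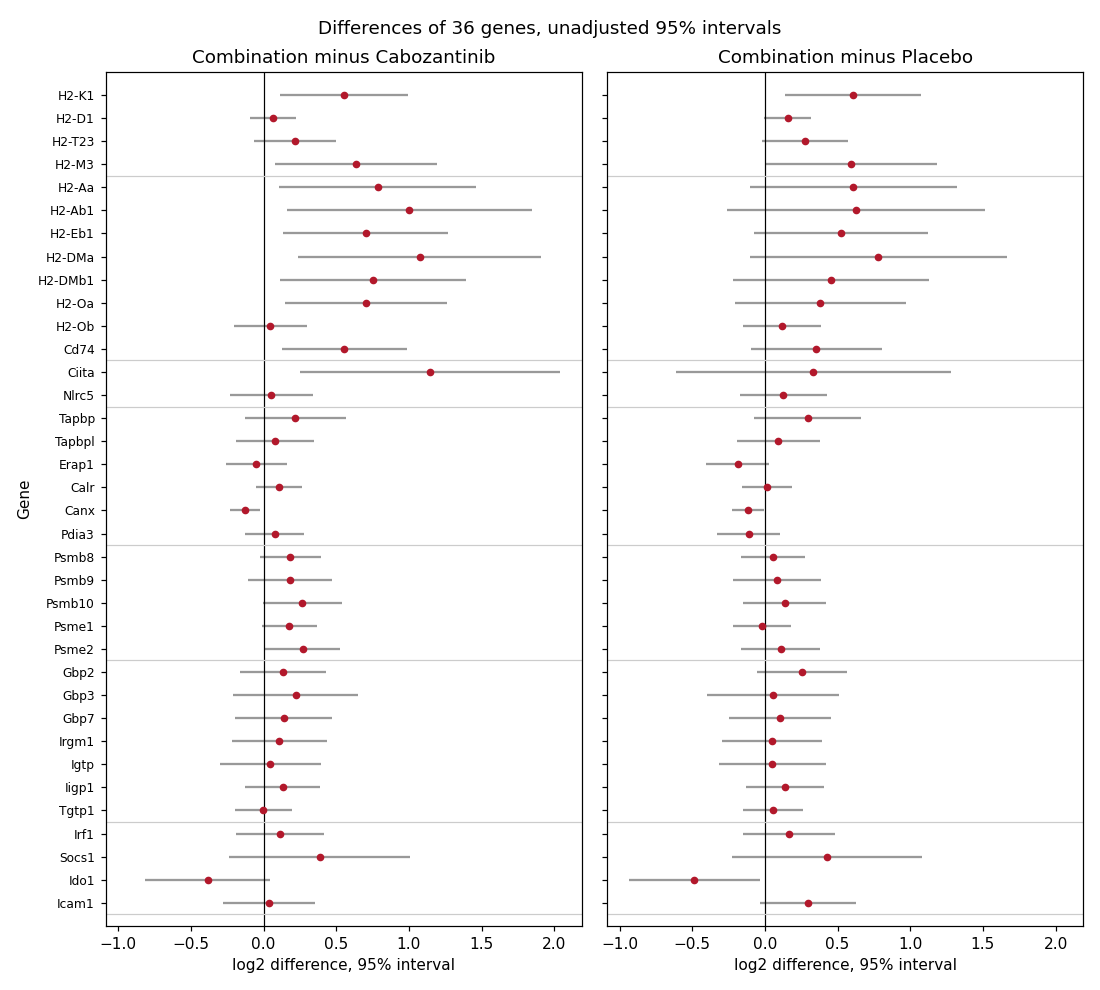
Points give the log2 difference of each of 36 genes for Combination minus Cabozantinib on the left and Combination minus Placebo on the right, with unadjusted 95% intervals from limma as bars. All 8 class II genes lie above 0 in both panels, Ido1 and Canx lie below 0 in both, and the GTPases stay within 0.3 of 0.

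The wider pathway was read from 56 measured genes of 6 further lists. In Combination against Placebo 3 of the 56 rose and 0 fell, a share below the 10.4% of all genes. Ctsl, a lysosomal protease, measured 12.51, 12.83, 12.65 and 12.53 in Combination tumours and 12.11, 12.23, 12.14 and 12.40 in Placebo tumours. It rose by 0.41 ± 0.09 with an adjusted p of 0.0182 by limma. Lgmn, an asparagine endopeptidase of the same compartment, rose by 0.80 ± 0.24 (adjusted p = 0.0459), and all 4 Combination tumours exceeded every Placebo tumour. Nos2, the inducible nitric oxide synthase, measured 6.46, 7.07, 7.06 and 5.57 in Combination tumours and 5.37, 5.10, 4.28 and 4.69 in Placebo tumours. It rose by 1.68 ± 0.49 with an adjusted p of 0.0444. These calls rested on single tumours: 0 of the 56 genes passed without Combination replicate 2, Placebo replicate 2 or Placebo replicate 3, and adjusted p values reached 0.0723 for Ctsl, 0.153 for Lgmn and 0.145 for Nos2. The macrophage markers and Alb moved in the same comparison, and their part was not tested.

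In Cabozantinib against AntiPD1, 1 of the 56 rose and 1 fell, beside 5.43% of all genes called. Socs3, a feedback inhibitor of cytokine receptors, rose by 0.73 ± 0.16 (adjusted p = 0.0194) and Hfe, a class I-like molecule of iron control, fell by 1.39 ± 0.285 on the log2 scale (adjusted p = 0.0156). Leaving out any 1 AntiPD1 tumour ended the call for Socs3, with an adjusted p of up to 0.0711, and leaving out AntiPD1 replicate 1 or 2 ended that for Hfe, with an adjusted p of up to 0.0996. The endothelial, macrophage and dendritic cell markers that were lower in Cabozantinib than in AntiPD1 tumours, given above, moved in the same comparison, and their part in both calls was not tested. None of the 56 genes was called in the other 5 comparisons by limma, where 1 to 15 of them had an unadjusted p under 0.05 in the pairwise comparisons and 0 in the interaction. Ifng itself measured 7.98, 7.67, 7.71 and 6.88 in Combination tumours and 7.47, 6.87, 6.36 and 6.37 in Placebo tumours. That difference was 0.79 ± 0.42 with an adjusted p of 0.228, beside a difference of 0.38 ± 0.28 for the T cell gene Cd3e. The receptor chain Ifngr1 differed by 0.16 ± 0.08, the chemokine Cxcl9 by 0.17 ± 0.22, the class II processing protease Ctss by 0.72 ± 0.33 and the class II promoter factor Rfx5 by -0.02 ± 0.10 between those groups, none past the threshold.

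Genes of a role varied together from tumour to tumour. Over the 16 tumours, the median Pearson r between pairs was 0.94 within class II, 0.92 within the GTPases, 0.92 within the immunoproteasome and 0.85 within class I. Between roles it was 0.89 for class I with class II, 0.84 for the immunoproteasome with the GTPases and 0.78 for class II with the GTPases. With group means removed, the medians were 0.92 within class II, 0.945 within the GTPases, 0.93 within the immunoproteasome, 0.84 within class I, 0.91 for class I with class II and 0.83 for class II with the GTPases. Without Cabozantinib replicate 2, the pairs within class II kept a median of 0.91 and those within the GTPases 0.82, while the median was 0.45 between class II and the GTPases and 0.84 between class I and class II. These correlations describe 16 tumours that share 1 array platform and normalisation, and 4 group means.

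The chosen pairs of a regulator or cell marker with a member were tested over the tumours by permutation, with p values adjusted over 8 pairs. Ifng and Iigp1 correlated at r = 0.93 (Spearman's rho 0.83), with adjusted permutation p values of 4e-05 and 0.00038. With group means removed r was 0.95, and without the 2 tumours farthest from the median of Ifng it was 0.84. Of the 17096 other genes, 0.05% correlated with Iigp1 as highly as Ifng did. Ifng and H2-Ab1 correlated less, at r = 0.85 (rho 0.73) with adjusted permutation p values of 0.000608 and 0.00338, and at 0.74 without the 2 farthest tumours, and 2.35% of other genes correlated with H2-Ab1 as highly. Cd3e, a T cell receptor subunit, correlated with Iigp1 at r = 0.64 (rho 0.60, adjusted permutation p values 0.0115 and 0.0211), at 0.54 with group means removed and at 0.77 without the 2 farthest tumours, and 6.21% of other genes reached that r with Iigp1.

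Class II ran with its transactivator and with myeloid markers. Ciita and H2-Ab1 correlated at r = 0.93 (rho 0.89), with adjusted permutation p values of 4e-05 and 2.67e-05, at 0.93 with group means removed and at 0.78 without the 2 farthest tumours. Adgre1, which encodes the macrophage marker F4/80, correlated with H2-Ab1 at r = 0.92 (rho 0.96), at 0.94 with group means removed and at 0.92 without the 2 farthest tumours. Itgax, which encodes the dendritic cell and macrophage integrin CD11c, correlated with it at r = 0.95 (rho 0.93), at 0.93 with group means removed and at 0.94 without the 2 farthest tumours. For both myeloid genes the adjusted permutation p values were 4e-05 for r and 2.67e-05 for rho. The share of other genes that correlated with H2-Ab1 as highly was 0.34% for Ciita, 0.48% for Adgre1 and 0.15% for Itgax. Cd79a, a B cell receptor subunit near background here, gave r = 0.435 with H2-Ab1 (rho 0.56, adjusted permutation p values 0.0975 and 0.0297) and 0.27 with group means removed, and 17.04% of other genes reached that r. With H2-Ob, which is also near background, Cd79a gave r = 0.55 (rho 0.53, adjusted permutation p values 0.0308 and 0.0369), and 6.8% of other genes reached that r. It was 0.65 with group means removed (adjusted permutation p = 0.00852) but 0.33 without the 2 farthest tumours, so the relation over all tumours rested on those tumours.

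**Figure D4:**
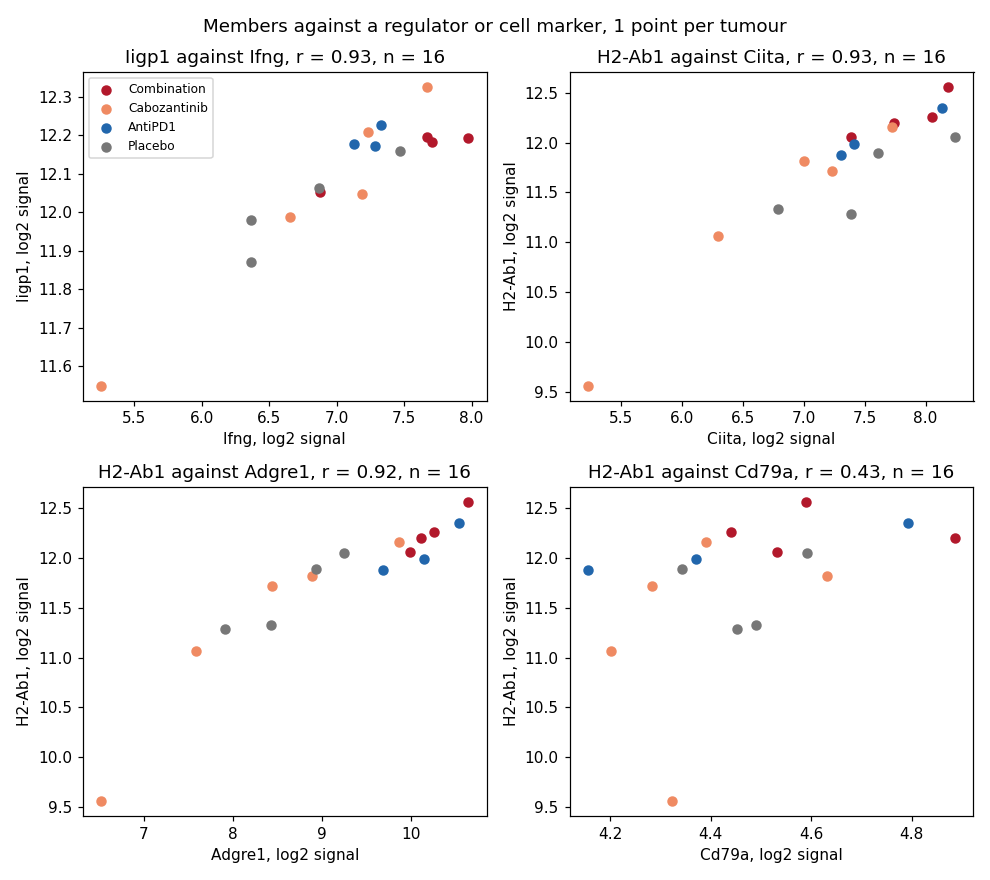
Each point is 1 of 16 tumours, coloured by group, with log2 signals on both axes. Iigp1 is plotted against Ifng (r = 0.93), and H2-Ab1 against Ciita (r = 0.93), Adgre1 (r = 0.92) and Cd79a (r = 0.435). Cabozantinib replicate 2 is the lowest point for both genes in the first 3 panels.

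Read gene by gene, all 7 GTPases correlated with Ifng more highly (r from 0.83 to 0.93) than with Adgre1 (0.56 to 0.78), and all 8 class II genes correlated with Adgre1 more highly (0.55 to 0.95) than with Ifng (0.33 to 0.86). Of the class I genes, H2-K1 (0.96 and 0.82), H2-M3 (0.94 and 0.85) and H2-D1 (0.74 and 0.585) correlated more highly with Adgre1 than with Ifng, while H2-T23 gave 0.85 with Adgre1 and 0.87 with Ifng. Over the tumours as measured, Ido1 correlated with neither Ifng nor Adgre1, at 0.13 and 0.04, and Canx correlated inversely with both, at -0.69 and -0.68. With group means removed, Ido1 gave 0.46 with Ifng and 0.21 with Adgre1, and Canx gave -0.555 and -0.27. H2-T23 then gave 0.89 with Adgre1 and 0.83 with Ifng, so its order turned. These values are descriptions of 16 tumours with no test of the difference between the correlations.

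The promoters of these roles differed in letters as well. RefSeq promoter windows of build GRCm38.p6, from 250 bases before to 50 after the start site, were given for 31 of the 40 genes as 36 windows. An ISRE core, the site read by IRF factors and here GAAANNGAAA on either strand, was in 6 of 7 windows of the GTPase genes, at least 1 window for each of 6 genes, and in 0 of 7 windows of class II genes. It was also in 2 of 6 class I windows, 1 of 6 peptide loading windows, 1 of 6 immunoproteasome windows and 1 of 4 windows of the other targets. Over all 32851 windows in the table it was in 3.44%. CCAAT, the box bound by NF-Y and a known part of MHC promoters, was on either strand of 6 of 6 class I windows, 6 of 7 class II windows and 2 of 7 GTPase windows, with 37.4% over all. The box was not particular to the MHC molecules, being in 5 of 6 peptide loading windows, 1 of 6 immunoproteasome windows and 2 of 4 windows of the other targets. A match is a description of the letters in a window, and no match says only that these letters are absent from it.

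Promoters are shown for the gene with the largest moderated statistic of its class in Combination against Placebo, and for H2-Eb1, the class II gene with the highest signal among those with a window, added after the values were seen. Capitals mark the ISRE core in Gbp2 and CCAAT boxes in the others, ATTGG being the box on the opposite strand. Gbp2 lies at chr3:142620413-142620712 on the plus strand, H2-Eb1 at chr17:34305617-34305916 on the plus strand, the downstream one of 2 windows of H2-DMa at chr17:34125268-34125567 on the plus strand and 1 of 2 overlapping windows of H2-K1 at chr17:34000298-34000597 on the minus strand.
Gbp2: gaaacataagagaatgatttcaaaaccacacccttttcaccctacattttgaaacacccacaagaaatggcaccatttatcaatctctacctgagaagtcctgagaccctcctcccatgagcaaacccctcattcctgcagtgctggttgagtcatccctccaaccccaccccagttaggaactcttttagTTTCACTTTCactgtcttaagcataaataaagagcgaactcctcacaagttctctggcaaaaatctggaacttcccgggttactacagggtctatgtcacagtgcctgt
H2-Eb1: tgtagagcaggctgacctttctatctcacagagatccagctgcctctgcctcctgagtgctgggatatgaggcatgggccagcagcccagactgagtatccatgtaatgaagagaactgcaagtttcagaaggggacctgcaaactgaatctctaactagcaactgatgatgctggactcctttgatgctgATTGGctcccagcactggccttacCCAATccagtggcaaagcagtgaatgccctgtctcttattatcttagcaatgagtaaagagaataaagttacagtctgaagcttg
H2-DMa: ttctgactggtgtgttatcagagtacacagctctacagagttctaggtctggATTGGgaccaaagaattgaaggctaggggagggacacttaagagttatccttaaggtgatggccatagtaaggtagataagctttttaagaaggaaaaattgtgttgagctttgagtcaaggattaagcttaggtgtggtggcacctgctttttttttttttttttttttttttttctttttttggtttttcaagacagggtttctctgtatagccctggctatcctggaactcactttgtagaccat
H2-K1: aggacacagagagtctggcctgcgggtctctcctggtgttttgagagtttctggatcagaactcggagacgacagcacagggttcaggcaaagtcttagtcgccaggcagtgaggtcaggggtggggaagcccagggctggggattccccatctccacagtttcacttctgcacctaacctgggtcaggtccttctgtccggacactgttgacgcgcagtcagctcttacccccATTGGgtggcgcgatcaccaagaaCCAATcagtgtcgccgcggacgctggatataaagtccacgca
The ISRE match of Gbp2, TTTCACTTTC, runs from -59 to -50, counting the start site as 0. The CCAAT boxes of H2-Eb1 run from -59 to -55 and from -35 to -31, that of H2-DMa from -198 to -194, and those of H2-K1 from -16 to -12 and from 8 to 12. The upstream window of H2-DMa holds none of these motifs. Gbp2 differed between Combination and Cabozantinib tumours by 0.13 ± 0.14, and H2-Eb1, H2-DMa and H2-K1 by 0.70 ± 0.27, 1.07 ± 0.39 and 0.55 ± 0.21. The difference was 0.02 ± 0.11 for Gbp2 and 0.39 ± 0.18 for H2-K1 without Cabozantinib replicate 2. The genes shown were chosen by values of these same tumours, and a link between letters and differences was not tested. Of the 40 genes, 16 lie on chromosome 17, which holds the mouse MHC, among them Tapbp, Psmb8 and Psmb9.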

How the data were processed

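RNA of 16 tumours was measured on 16 arrays, 1 per tumour, grouped by the treatment label. The authors deposited log2 probe set signals; the submitters' processing notes name RMA and affy 1.62.0, without a genome build. There were 45141 probe sets. Of these, 104 were controls, 28898 were paired with 1 gene, 551 with several and 15588 with none. The probe set with the highest mean stood for each of 17097 genes. Array medians ran from 4.92 to 5.13, and no 2 arrays correlated above 0.994. Arrays carry no read depth, so the number of tumours limits the precision.

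Every gene was fitted with limma 3.58.1 under R 4.3.3 (lmFit and eBayes on log2 values, 4 group means, 12 residual degrees of freedom), two-sided, with Benjamini-Hochberg adjustment over all genes and a threshold of 0.05. Intervals are unadjusted. Correlations used two-sided permutation tests with 100000 resamples, whose smallest p is 1e-05. Tumours were shuffled without regard to group. Removing group means leaves fewer free values, so the p values of that version may be too small. Of 10 planned pairs, 8 could be computed, since Tap1 has no probe set of its own. In simulated data for Combination against Placebo over 17097 genes, the test recovered 50.75% of 67 genes changed by 0.5, 80.6% of 67 changed by 1 and 93.94% of 66 changed by 2 on the log2 scale. The changed genes were drawn at random from those above the lowest array median, whose median within-group SD was 0.18. That SD was 0.46 in the median over the class II genes and 0.68 for Ciita. The recovered shares therefore do not apply to such members.

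All 40 members may be named; of other pathway genes, those past the threshold plus Ifng, Ifngr1, Cxcl9, Ctss, Rfx5 and a gene not reported here; of markers, Adgre1, Itgax, Cd79a, Cd3e, Cd8a, Alb, Afp and any at or below the lowest array median. The members, lists and pairs were chosen with earlier results of these data known. The labels name 1 tumour per sample and no batch.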

Additional observations from a re-analysis of the deposited data

Results flagged for a closer look

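In each gene and group of 4 or 5 tumours, 108 in all, the most distant tumour was compared with Dixon's critical value, and 6 lay beyond it. Chance alone passes about 1 in 20 groups, so this number is close to what chance gives, and members that vary together are not separate cases. In Combination replicate 4, the lowest of its group, the log2 signal was 12.26 for Gbp2, 12.05 for Iigp1, 11.10 for Psme1 and 7.29 for Socs1. That tumour had the highest skeletal muscle markers of the 16, with a mean deviation of 5.24, and the part of this in its low values was not tested. Calr was lowest in Combination replicate 1, at 11.16. Socs1 was highest in Placebo replicate 1, at 8.15.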

How the results depend on the processing

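The count of members called stayed at 0 in 159 alternatives and moved above it in 8. For Combination against Placebo it was 2 with only those groups fitted (H2-K1 and H2-M3), 1 with array weights (H2-K1), and 0 to 2 with 1 tumour left out (H2-K1 and H2-M3 without Cabozantinib replicate 2, Ido1 without Combination replicate 1). For Combination against Cabozantinib it was 0 to 7 with 1 tumour left out, and the 7 came without Cabozantinib replicate 3: Cd74, Ciita, H2-DMa, H2-DMb1, H2-Eb1, H2-K1 and H2-M3. For Combination against AntiPD1 it was 0 to 1 with 1 tumour left out (Ido1 without Combination replicate 1). For Cabozantinib against AntiPD1 it was 4 with array weights and 0 to 4 with 1 tumour left out, the same genes Calr, Pdia3, Psme1 and Psme2 both times (without Cabozantinib replicate 3). Of the alternative values for the 27 member differences with an unadjusted p under 0.05, 625 stayed on the same side of the threshold, 22 passed it and 0 changed sign. Of the other 225 member differences, 82 changed sign under at least 1 alternative, all of them no larger than 1.04 times their SE. The correlation of Cd79a with H2-Ob was 0.333 without the 2 farthest tumours and 0.3985 to 0.6102 with 1 tumour left out, the lowest without AntiPD1 replicate 2 (adjusted permutation p = 0.153); the other 150 alternatives kept each r on its side of the threshold. Of the 5 pathway genes called, Hfe and Socs3 were called in 20, Ctsl in 21, Lgmn in 10 and Nos2 in 14 of 24 alternatives each, with no change of sign. The cause of these changes was not tested.

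Counts over all genes also moved. Combination against Placebo gave 1771 genes, but 42 without Combination replicate 2, 61 without Placebo replicate 2 and 3059 with array weights. Combination against Cabozantinib gave 1, but 1441 with array weights and 1955 without Cabozantinib replicate 3. AntiPD1 against Placebo gave 5, but 70 with only those groups fitted and 1822 with array weights. Combination against AntiPD1 gave 40, Cabozantinib against AntiPD1 928 and Cabozantinib against Placebo 44, and with array weights 155, 2864 and 71, or with only those groups fitted 22, 149 and 4. Without genes of low signal, Combination against AntiPD1 gave 25, Combination against Cabozantinib 2, AntiPD1 against Placebo 1 and Cabozantinib against Placebo 72. The mean of all probe sets gave 82 for the last, 8 for AntiPD1 against Placebo and 4 for Combination against Cabozantinib. Combination against Cabozantinib gave 2 with a trend and robust fit and 2 after quantile normalisation. With 1 tumour left out, AntiPD1 against Placebo gave 0 to 30, Cabozantinib against Placebo 5 to 91, Combination against AntiPD1 13 to 50, Cabozantinib against AntiPD1 164 to 1916 and the interaction 0 to 1. Without the 3 tumours high in muscle genes, an alternative added after seeing the data, Combination against Cabozantinib gave 37, Combination against AntiPD1 14 and Cabozantinib against AntiPD1 235. No paired analysis was possible because the numbers in the sample titles are not explained in the labels; as a random block they gave a correlation of -0.10, 0 members called in every comparison and 1 gene for AntiPD1 against Placebo. Probe sets near the array medians limit H2-Ob, Pdia3 and Cd79a.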
